A study of Arabidopsis thaliana with 2 samples.

Results

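The C and S1 groups of basic leucine zipper (bZIP) transcription factors were described in leaves of Arabidopsis thaliana. They comprise 5 S1 genes (bZIP1, bZIP2, bZIP11, bZIP44 and bZIP53) and 4 C genes (bZIP9, bZIP10, bZIP25 and bZIP63), taken by locus from the 27336 loci of the count files, where all 9 were present. Both groups of plants were of the Columbia ecotype, one wildtype and one the mutant line atpip1;2-1, in which the gene of the plasma membrane aquaporin PIP1;2 is disrupted. Each genotype was 1 library from pooled leaf RNA of 10 soil-grown plants at 3 weeks of age under 12 h of light a day, sequenced from transcript 3' ends. The question put to the libraries was how the leaf transcriptome of plants deficient in this aquaporin compares with that of normal plants.

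bZIP proteins bind DNA as dimers, and C group proteins pair preferentially with S1 group proteins. The resulting C/S1 network is known as an output of SnRK1, the protein kinase that senses energy shortage, which phosphorylates bZIP63, and it activates genes that release carbon and nitrogen from amino acids when sugar is short. The S1 mRNAs carry conserved upstream reading frames through which high sucrose represses their translation, so that their transcript levels do not give their protein levels. bZIP9 and bZIP11 are known for expression in the vasculature.

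The members share a basic region, which contacts DNA. The stretch of 27 coding bases below runs from the codon of its invariant asparagine to that of its invariant arginine, both in capitals. It was read by locus from RefSeq TAIR10.1 on the coding strand, and it compares the members base by base.
bZIP1, chromosome 5, plus strand: AACcgcgaatctgcaaggaggtcgCGT
bZIP2, chromosome 2, minus strand: AACagagaatctgcacgtaggtcaAGG
bZIP11, chromosome 4, plus strand: AACcgtgaatctgcaaggagatcaAGA
bZIP44, chromosome 1, plus strand: AACagagaatctgcgaggaggtcgAGG
bZIP53, chromosome 3, minus strand: AACagagaatctgctcggaggtcaAGG
bZIP9, chromosome 5, plus strand: AACagggaatcagcaaagaggtcgAGG
bZIP10, chromosome 4, plus strand: AATcgtgagtcagctaggcgatctAGA
bZIP25, chromosome 3, minus strand: AACcgagaatccgctaggcgctctAGG
bZIP63, chromosome 5, minus strand: AATagagaatcagctagacggtccAGA
The 10 pairs of S1 genes had 20 to 25 identical bases here (median 21.5), the 6 pairs of C genes had 17 to 21 (19.5) and the 20 mixed pairs 15 to 23 (20). Apart from a codon of bZIP9, the differing bases leave the encoded amino acids unchanged. These counts therefore describe codons and not how alike the proteins are. Likeness was not compared in this way over the part of the transcripts that was sequenced. There, exact matches of 25 bases were counted, which tells whether words of that length are unique in the genome. How the deposited reads were placed was not given. Of the 25-base words in the last 200 of each member's longest annotated transcript, 0 occurred elsewhere in the genome, and over the whole transcript at most 0.904% did, in bZIP25.

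The wild-type library held 4079098 reads and the mutant library 4041759, with a read at 19363 and 19441 loci. Levels are given as CPM, reads scaled to a common library size with TMM factors, with an exact Poisson 95% interval. Neither genotype had a replicate library, and intervals cover counting error only. A gene was called higher or lower when its reads differed by the exact binomial test at a Benjamini-Hochberg adjusted p under 0.05 over all 15111 genes with at least 20 reads, and its ratio reached 2-fold. Such a test speaks of 2 libraries and not of the genotypes. The aquaporin gene itself checked the labels, with 4211 wild-type and 566 mutant reads, or 12.9% of the wild-type level left. Leaf markers were abundant, with summed levels of 4 mesophyll genes of 65853 and 60021 CPM, led by RBCS1A (23128 and 17918 CPM) and LHCB1.3 (21077 and 20970 CPM). The 10 seed maturation genes, among them the storage albumins 2S1 and 2S2 and other genes activated by bZIP10, bZIP25 and bZIP53 in seeds, had 0 reads in both libraries, which allows up to 0.754 and 0.724 CPM each when 3 reads are taken as the limit of a count of 0. Of 4 root markers 2 were at 0, CASP1 had 1 read in each library and PYK10 had 10 and 15 reads.

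Among the S1 genes, bZIP11 was lower in the mutant library, and it was the only member called in either direction, where 1.3% of all tested genes were called higher and 1.1% lower. The other S1 genes had log2 ratios (mutant over wild type) above 0 but were not called. bZIP11 (AT4G34590), an activator of asparagine and proline metabolism genes, had 81 wild-type and 41 mutant reads. Its level was 20.3 CPM (16.2 to 25.3) in wild-type leaves against 9.90 CPM (7.10 to 13.4) in mutant leaves, so the intervals did not overlap. The log2 ratio was -1.04 (-1.62 to -0.48), which left 48.7% of the wild-type level, with an adjusted p of 0.002 by the exact test. Of the 15111 tested genes 275 had a lower ratio. The call depended on scaling, since the ratio lay just past 2-fold. With total counts as library sizes it was -0.97, and it was not called. A spread of 20% between plant pools, assumed in the edgeR exact test, gave an unadjusted p of 0.0383 and an adjusted p of 1.

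bZIP2 (AT2G18160), also called GBF5, was the most abundant S1 gene, with 225 wild-type and 272 mutant reads. That was 56.5 CPM (49.4 to 64.4) and 65.7 CPM (58.1 to 74.0), with overlapping intervals and a log2 ratio of 0.22 (-0.04 to 0.48). bZIP53 (AT3G62420), which in seeds acts with bZIP10 and bZIP25, had 140 and 156 reads. Its levels of 35.2 CPM (29.6 to 41.5) and 37.7 CPM (32.0 to 44.1) gave a log2 ratio of 0.10 (-0.24 to 0.44). Both genes thus differed by less than counting error between the libraries. bZIP1 (AT5G49450), whose transcript is known to be repressed by sugar, had 20 wild-type and 35 mutant reads. The levels were 5.02 CPM (3.07 to 7.76) and 8.45 CPM (5.89 to 11.8), and the log2 ratio of 0.75 (-0.08 to 1.62) was the highest among the members, but its interval included 0 at this depth. bZIP44 (AT1G75390) had 4 and 5 reads, or 1.00 CPM (0.274 to 2.57) and 1.21 CPM (0.392 to 2.82), and was the only member under the minimum of 20 reads. It was not tested, and a difference in it was not detectable at this depth.

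All 4 C genes had log2 ratios above 0, and 0 of them passed the 2-fold rule. bZIP25 (AT3G54620), a C gene with a known role in seed maturation, had 137 wild-type and 228 mutant reads. Its level was 34.4 CPM (28.9 to 40.7) against 55.1 CPM (48.1 to 62.7), with no overlap of the intervals. The log2 ratio was 0.68 (0.37 to 0.99), or 1.60-fold, with an adjusted p of 0.00021 by the exact test. bZIP63 (AT5G28770), the member phosphorylated by SnRK1, had 110 and 176 reads. The levels of 27.6 CPM (22.7 to 33.3) and 42.5 CPM (36.5 to 49.3) did not overlap, with a log2 ratio of 0.62 (0.27 to 0.98), or 1.54-fold, and an adjusted p of 0.0047. With a threshold of 1.5-fold in place of 2-fold, bZIP25 and bZIP63 were called higher, as were 3.28% of all tested genes, with 3.96% called lower and 7.25% called in either direction at that threshold. With the assumed spread of 20% the unadjusted p was 0.128 for bZIP25 and 0.168 for bZIP63, and the adjusted p was 1 for both (edgeR exact test). bZIP9 (AT5G24800), known from phloem, had 105 and 141 reads, or 26.4 CPM (21.6 to 31.9) and 34.0 CPM (28.7 to 40.2), and a log2 ratio of 0.37 (-0.01 to 0.75). The annotation places AT5G24810 on the opposite strand across part of bZIP9, with 111 and 114 reads. Whether counting used strand is not stated in the labels, and reads of these neighbours cannot be told apart. bZIP10 (AT4G02640), whose protein is retained in the cytoplasm by LSD1, had 59 and 77 reads, or 14.8 CPM (11.3 to 19.1) and 18.6 CPM (14.7 to 23.2), with a log2 ratio of 0.33 (-0.18 to 0.84). bZIP9 and bZIP10 overlapped in their intervals between the libraries.

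**Figure D1:**
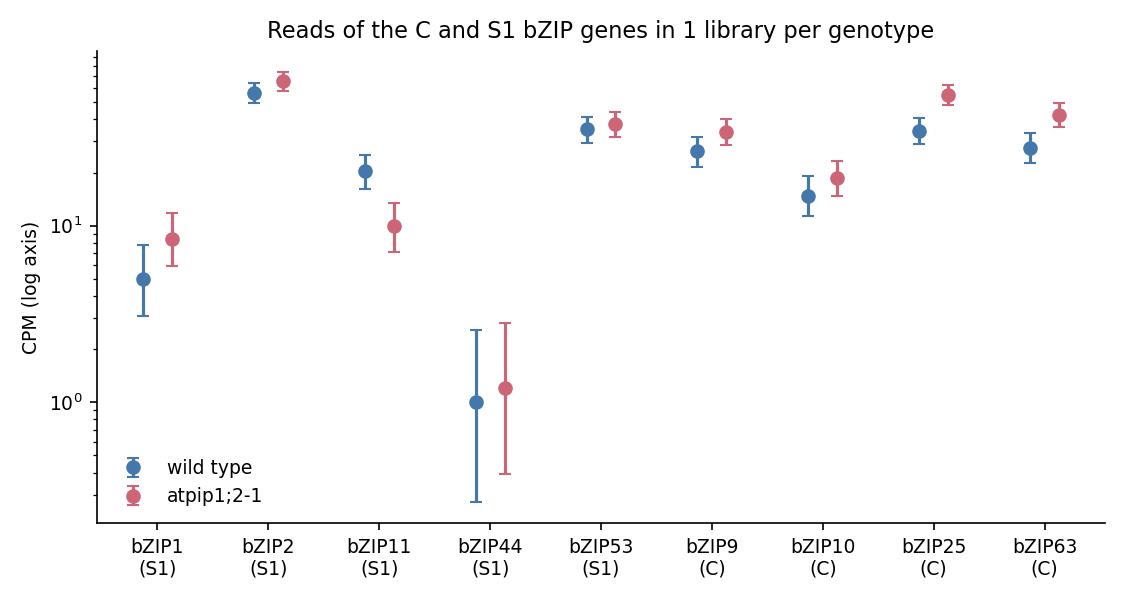
CPM of each C and S1 gene on a log axis in the wild-type (blue) and atpip1;2-1 (red) library, 1 library each, with exact Poisson 95% intervals for counting error. bZIP11 lies at 20.3 CPM in blue and 9.90 CPM in red, while bZIP25 lies at 34.4 and 55.1 CPM.

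The order of the members was compared as CPM per kb of the longest annotated transcript. Reads came from 3' ends, so that division by length may overcorrect, and the plain CPM are given above. In the wild type the order was bZIP2 (45.9 CPM per kb), bZIP53 (27.8), bZIP9 (25.8), bZIP25 (21.9), bZIP63 (20.3), bZIP11 (14.9), bZIP10 (8.59), bZIP1 (5.54) and bZIP44 (0.766). bZIP2 stood above bZIP53, bZIP11 above bZIP10 and bZIP1 above bZIP44 with no overlap of intervals. The other neighbours in this order overlapped. In the mutant library the order was bZIP2 (53.4 CPM per kb), bZIP25 (35.0), bZIP9 (33.3), bZIP63 (31.2), bZIP53 (29.8), bZIP10 (10.8), bZIP1 (9.32), bZIP11 (7.23) and bZIP44 (0.921). Here bZIP2 was separated from bZIP25, bZIP53 from bZIP10 and bZIP11 from bZIP44, and the other neighbours overlapped. Per kb bZIP11 thus moved from rank 6 to rank 8 and bZIP53 from 2 to 5, while by plain CPM bZIP11 moved from rank 6 to 7, above bZIP1, and bZIP53 from 2 to 4, although the latter's own level differed by less than counting error.

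Shares of reads within the family do not depend on library scaling. bZIP11 held 17.2% (13.9% to 21.0%, Clopper-Pearson) of the 470 wild-type S1 reads and 8.06% (5.84% to 10.8%) of the 509 mutant ones. The intervals did not overlap for bZIP11. They did for the other 4 S1 genes, among them bZIP2 at 47.9% (43.3% to 52.5%) and 53.4% (49.0% to 57.8%) and bZIP53 at 29.8% and 30.6%. Within the C group every member's share overlapped between the libraries, with bZIP25 at 33.3% (28.8% to 38.1%) of 411 reads and 36.7% (32.9% to 40.6%) of 622. The C genes together held 46.7% (43.3% to 50.01%) of the 881 wild-type reads of the family. They held 55.0% (52.0% to 57.9%) of the 1131 mutant ones, without overlap. bZIP11, with 81 and 41 reads, is counted among the S1 reads here. Without it the family held 800 and 1090 reads, of which 411 and 622 were from C genes. An interval for that share was not computed, so the separation may rest on bZIP11.

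For each bZIP11 read the wild-type library held 1.73 reads of bZIP53, 1.69 of bZIP25, 1.36 of bZIP63 and 0.247 of bZIP1. In the mutant library it held 3.805, 5.56, 4.29 and 0.854. Over the 8 other members this ratio was 2.20-fold (bZIP53) to 3.46-fold (bZIP1) higher in the mutant library. The higher ratios follow from a lower bZIP11 count beside equal or higher counts of the others.

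**Figure D2:**
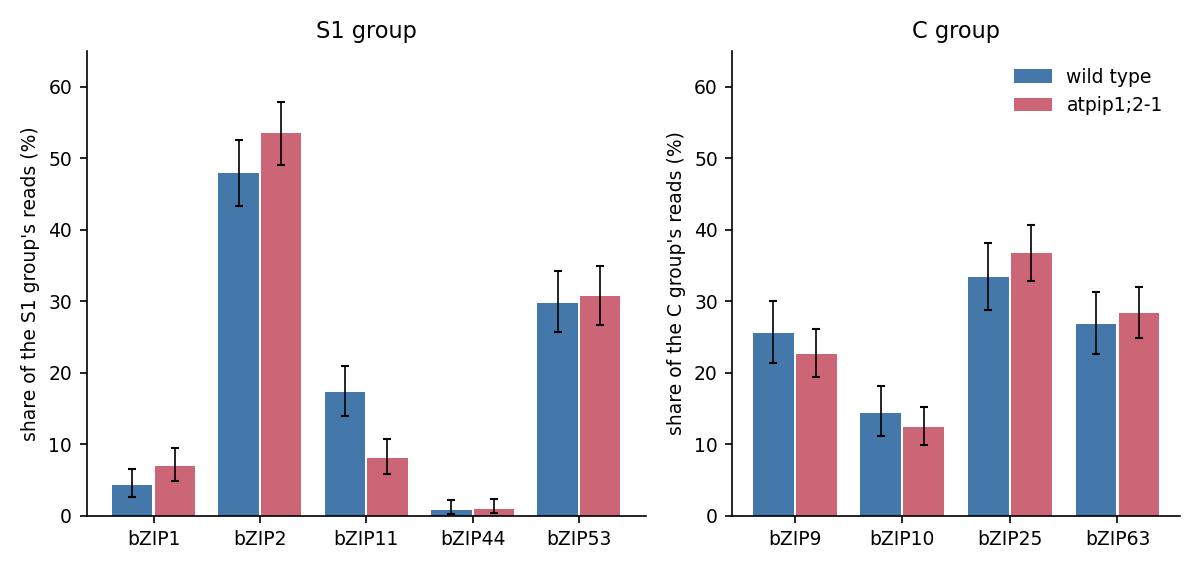
Share of the reads of the S1 group (left) and of the C group (right) held by each gene, in percent, in the wild-type (blue) and atpip1;2-1 (red) library, with Clopper-Pearson 95% intervals. bZIP11 holds 17.2% of wild-type and 8.06% of mutant S1 reads, while the 4 C genes keep overlapping shares.

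Summed over its 4 genes, the C group reached 103 CPM (93.5 to 114) in wild-type leaves against 150 CPM (139 to 162) in mutant leaves, a log2 ratio of 0.54 (0.36 to 0.72), or 1.45-fold. The 5 S1 genes together were at 118 CPM (108 to 129) and 123 CPM (112 to 134), a log2 ratio of 0.06 (-0.13 to 0.24). Without bZIP11 the S1 sum gave 0.21 (0.01 to 0.41). On the TMM scale the S1 transcripts as a pool therefore differed by less than counting error. This did not hold with summed reference genes as the scale, where the S1 sum gave 0.28 (0.10 to 0.46). Of the 8 tested members 7 had a log2 ratio above 0, with a median of 0.35. Of all tested genes 49.8% lay above 0, with a median of -0.00. The ratio's interval lay above 0 in 2 of these members and below 0 in 1, against 10.3% and 13.2% of all tested genes. Another scaling shifts all genes alike, and under each of the other 5, with shifts of -0.07 to 0.22, 7 members lay above 0.

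**Figure D3:**
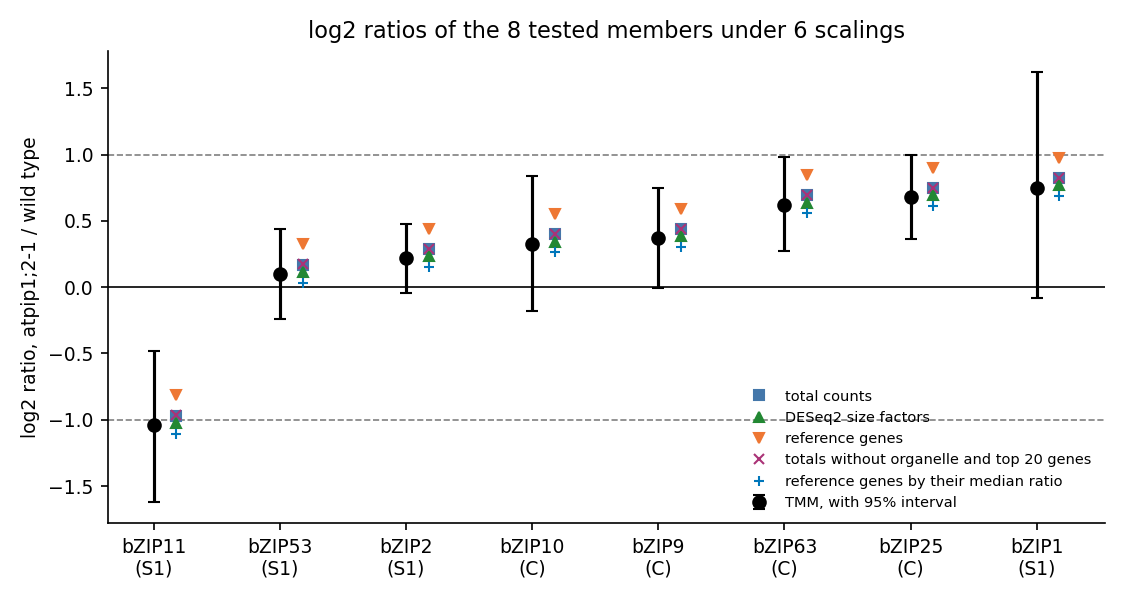
log2 ratio of the mutant over the wild-type library for the 8 tested members, with 95% counting intervals under TMM scaling (black) and point values under 5 other scalings (coloured symbols); dashed lines mark 2-fold. bZIP11 is the only member below 0 and lies between -1.10 and -0.82 across the scalings.

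The other bZIP groups served as a comparison within the same protein family. The list of 58 genes is not complete, and among group A genes outside it GBF4 had 45 reads in each library (log2 ratio -0.06). Of the 58, 13 had no read in either library and 35 were tested. Of these, 0 were called in either direction, against 2.4% of all tested genes, and their log2 ratios ran from -0.55 to 0.85 with a median of 0.13. In 4 of them the interval lay above 0 and in 0 below 0, against 10.3% and 13.2% of all tested genes. Of the 35, 21 had a log2 ratio above 0 and 14 below 0, where 49.8% of all tested genes lay above 0. Reads summed over all 58 gave a log2 ratio of 0.17 (0.07 to 0.26). Ratios above 0 were found outside the C and S1 genes too, among other bZIP genes as among all tested genes. bZIP11, at -1.04, had the lowest ratio of the 43 listed and tested bZIP genes, its own group included. Its interval of -1.62 to -0.48 overlapped that of the lowest gene of the other groups (-0.55, -1.54 to 0.40). Of the 12 other genes of group S, 7 had no read and only bZIP6 (8 and 15 reads) was tested, while bZIP3 had 8 and 11. In group A, the abscisic acid response factors, ABF3 was at 12.6 and 21.0 CPM (log2 ratio 0.74, 0.22 to 1.27) and ABF1 at 20.8 and 21.2 CPM (0.03), and the median of the 6 listed genes that were tested was 0.12. In group G, which binds the G-box, GBF1 was at 34.9 and 47.3 CPM (0.44, 0.12 to 0.76) and bZIP68 at 10.3 and 15.9 CPM (0.63), with a median of 0.15 over 4. In group H, the light signalling factors HY5 (8.79 and 10.4 CPM, 0.24) and HYH (18.6 and 14.0 CPM, -0.41) had overlapping intervals.

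In group D, the TGA factors of salicylic acid responses, 7 were tested with a median of 0.19, and TGA3 was at 14.6 and 15.9 CPM and TGA1 at 8.04 and 11.6 CPM. In groups B and K, factors of the endoplasmic reticulum stress response, bZIP60 was at 39.2 and 58.0 CPM (0.56, 0.27 to 0.86) and bZIP17 at 15.3 and 15.2 CPM, with a median of 0.09 over 3. In group I the median of 7 was 0.23, with VIP1 at 24.4 and 28.5 CPM and bZIP59 at 20.3 and 18.6 CPM. In groups E, F and J it was -0.22 over 5, with bZIP61 at 17.8 and 13.8 CPM and the zinc deficiency regulator bZIP19 at 12.8 and 14.0 CPM.

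**Figure D4:**
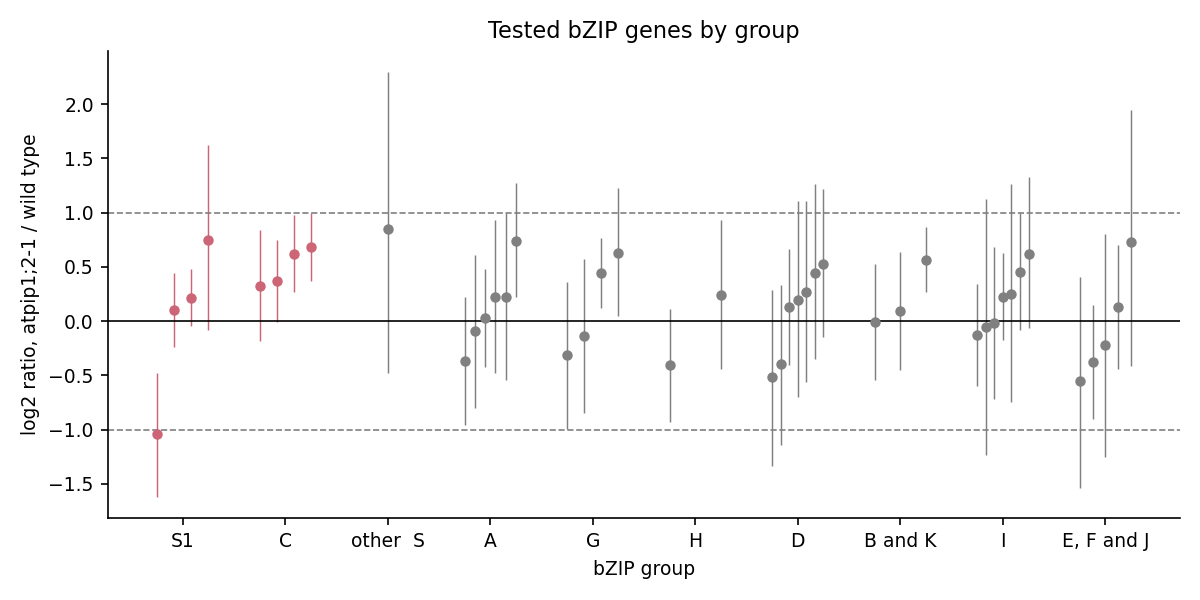
log2 ratio of each tested bZIP gene by group, with 95% counting intervals; C and S1 genes are red, other groups grey, the solid line is the median of all tested genes and dashed lines mark 2-fold. The point value of bZIP11 at -1.04 lies below the lowest of the other groups, at -0.55, but the intervals of these 2 genes overlap.

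A list of 27 genes known as targets of C or S1 factors, or as markers of the SnRK1 response in which they act, was set beside the members. It was drawn from general knowledge with earlier results of these data known. Its counts beside all tested genes are therefore descriptive and not a test. Of its 23 tested genes 4 were called higher and 0 lower, where 1.3% of all tested genes were called higher, and 19 had a log2 ratio above 0, with a median of 0.55. The called genes were SEN1, a dark-inducible gene, with 14 and 70 reads (2.26, 1.42 to 3.21), BGAL4, a beta-galactosidase, with 10 and 39 reads (1.91, 0.88 to 3.07), DRM2, a dormancy-associated gene, with 195 and 486 reads (1.26), and DIN10, a raffinose synthase-like gene, with 154 and 327 reads (1.03). These 4 are general markers of low sugar. With the assumed spread of 20% the adjusted p was 0.0618 for SEN1 and above it for the others.

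The direct targets studied most were too scarce in these leaves to be resolved. ASN1, the asparagine synthetase activated by bZIP1, bZIP11 and bZIP53, had 6 wild-type and 15 mutant reads, a log2 ratio of 1.26 (-0.18 to 2.92). PRODH1, the proline dehydrogenase bound through the ACTCAT motif, had 27 and 33 reads, with a ratio of 0.23 (-0.55 to 1.02), and PRODH2 had 4 and 13 reads and was under the minimum. None of the intervals of these genes excluded 0. In the breakdown of branched-chain amino acids, IVD was at 19.1 and 26.1 CPM (0.45, 0.01 to 0.89), BCAT2 at 5.28 and 7.73 CPM (0.55, -0.29 to 1.42) and ETFQO, a target of bZIP63 that passes their electrons to ubiquinone, at 10.3 and 15.7 CPM (0.61, 0.02 to 1.21). The tyrosine aminotransferase TAT7 was at 33.2 and 25.1 CPM (-0.40, -0.79 to -0.02).

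Of the trehalose phosphate synthase-like genes of the list, only TPS5 had a ratio below 0. TPS8 was at 28.1 and 43.2 CPM (0.62, 0.27 to 0.97), TPS11 at 17.8 and 32.6 CPM (0.87, 0.45 to 1.31) and TPS10 at 9.04 and 16.7 CPM (0.88, 0.28 to 1.51). TPS9 had 16 and 27 reads (0.70, -0.25 to 1.69). TPS5, known as a gene that sugar induces, was at 18.8 and 12.6 CPM (-0.59, -1.12 to -0.06), with an adjusted p of 0.147 by the exact test. None of these synthase-like genes passed the 2-fold rule, while the unadjusted intervals of TPS5, TPS8, TPS10 and TPS11 excluded 0. Among targets described for bZIP11, the trehalase TRE1 had 7 and 17 reads (1.22, -0.12 to 2.74), TPPF 11 and 16, TPPE 27 and 23, MIOX2 1 and 1 and MIOX4 0 in both. The higher and lower ratios of these targets described for bZIP11 were thus not resolved from counting error.

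**Figure D5:**
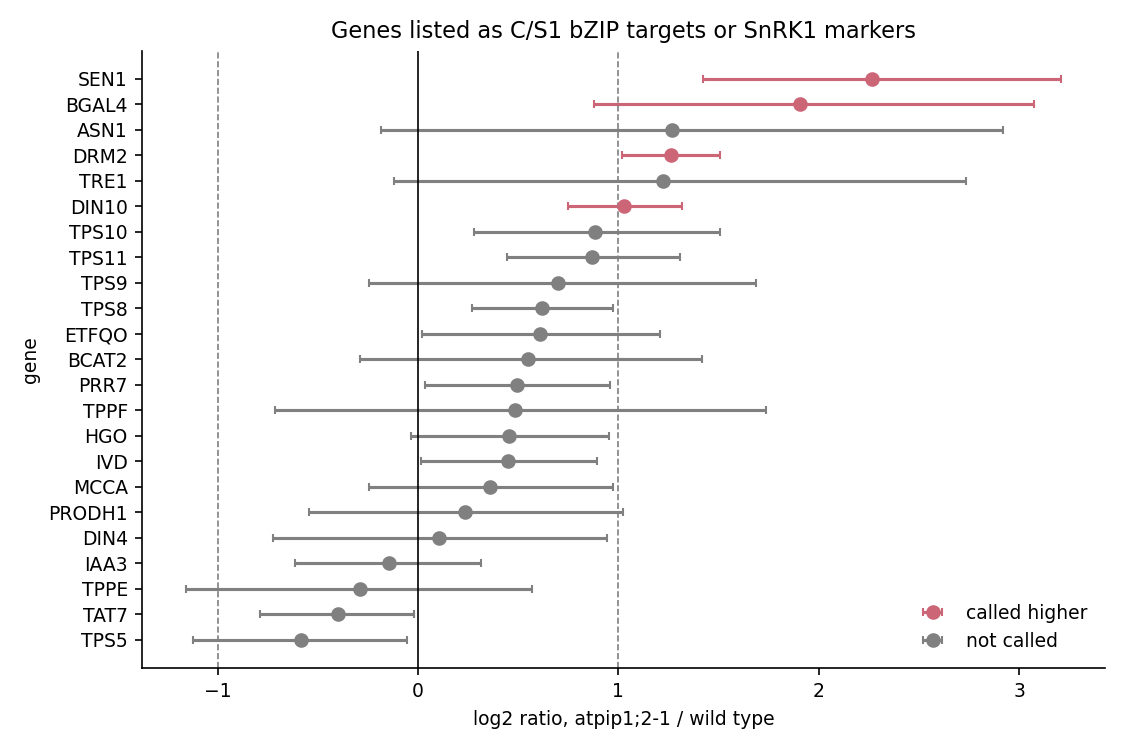
log2 ratio of the 23 tested genes of the list of C/S1 targets and SnRK1 markers, with 95% counting intervals; genes called higher are red, the dashed lines mark 2-fold. SEN1, BGAL4, DRM2 and DIN10 are called, and 19 of the 23 genes lie above 0.

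C/S1 dimers are known to bind ACTCAT and elements with the core ACGT, including the G-box CACGTG, which contains that core. Both strands from 250 bases before to 50 after the annotated gene start were searched in RefSeq TAIR10.1. The motif ACTCAT was found in 7 of the 27 listed targets and markers (25.9%) and in 14.7% of all protein-coding genes. CACGTG was found in 3 (11.1%) and 7.68%, and ACGT in 17 (63.0%) and 49.9%. Among tested genes the shares were 13.9% for ACTCAT, 8.88% for CACGTG and 50.1% for ACGT. The list holds genes known for such motifs, PRODH1 among them, so its shares are descriptive and not a test. Among the 9 members, 1 held ACTCAT, 0 CACGTG and 4 ACGT. Windows of 30 bases, on the strand of the gene and with the motif in capitals, show 1 example of each kind. They come from genes of that list described above, of which DIN10 is a general marker of low sugar.
ASN1, chromosome 3, G-box 167 bases before the start: ttgtcgtgataaCACGTGtacggctctaaa
PRODH1, chromosome 3, reverse complement of ACTCAT 24 bases before the start: gaaaactttgcaATGAGTccattaattaaa
DIN10, chromosome 5, ACGT 43 bases before the start: caagaaacgtaagACGTgtaacttaaaaac
The DIN10 window holds another ACGT, left in lower case, 50 bases before the start. The matches describe these letters only, and binding was not measured.

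Upstream of the network, 1 of the 7 SnRK1 subunit genes was called higher, where 1.3% of all tested genes were. KINB1, a beta subunit, was at 21.6 and 47.8 CPM (1.15, 0.77 to 1.53). The gamma-type subunit KING1 was at 16.1 and 30.7 CPM (0.93, 0.49 to 1.39), and was not called because its ratio lay under 2-fold. KINB2 was at 20.1 and 20.5 CPM. The catalytic subunits KIN10 (67 and 90 reads, 0.37) and KIN11 (58 and 41 reads, -0.56) had intervals that included 0. Of 8 genes for partners of the C/S1 proteins and for sugar sensing, 0 were called, where 2.4% of all tested genes were called in either direction, and 5 had a ratio below 0, with a median of -0.30. TPS1, which makes trehalose 6-phosphate, an inhibitor of SnRK1, was at 40.9 and 25.6 CPM (-0.68, -1.04 to -0.32), S6K1, a target of the TOR kinase, at 43.7 and 33.6 CPM (-0.38, -0.71 to -0.05), and LSD1 at 25.9 and 22.0 CPM (-0.24, -0.66 to 0.18).

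Markers of other leaf cell types and of time of day were read beside bZIP11 and the C genes. In bulk leaves fewer cells of a type and less RNA per cell cannot be told apart. The 7 phloem markers summed to 737 and 689 CPM, with log2 ratios from -0.23 to 0.04, led by PP2-A1 (230 and 237 CPM) and SUC2 (188 and 168 CPM), and 0 of them were called. The 4 epidermal markers summed to 1394 and 1170 CPM, with LTP1 at -0.48 and KCS6 at 0.50. The 4 guard cell markers summed to 28.4 and 26.6 CPM, led by KAT1 and MPK12. The 5 genes of dividing cells summed to 73.9 and 51.7 CPM, with H3.1 at -0.59 and PCNA2 at -0.45. No marker of these lists was called, where 2.4% of all tested genes were called in either direction. All 9 clock genes had ratios above 0, as had 49.8% of all tested genes, and 0 were called. The ratios ran from 0.14 to 0.94 for PRR5, with LHY at 0.33 and CCA1 at 0.30. In 4 of the 9 the interval lay above 0, against 10.3% of all tested genes. PRR7 stands in this list and in that of targets. The labels name no hour of harvest, and the part of these differences in the C/S1 values was not tested.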

How the data were processed

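Leaf RNA was measured in 1 library per genotype. The deposited values are raw read counts per locus, 1 column per genotype per the file headers, with reads from 3' end cDNA libraries per the labels' protocols and TAIR9 as the build, per the submitters' processing notes. How reads were aligned and counted, and what became of multiply matching reads, was not given in the sources used here. Each file had 27337 rows, and 1 locus listed more than once was kept once. TMM factors (0.976 and 1.02, edgeR 4.0.16, R 4.3.3) scaled the library sizes. A quasi-likelihood fit needs residual degrees of freedom, and these libraries leave none. Each gene's reads were therefore set against each other in an exact binomial test (two-sided, Clopper-Pearson 95% intervals) over all 15111 genes with at least 20 reads, as 1 family. A call also needed an interval that excluded 0 and a 2-fold ratio. Reads carry no molecular identifiers, so intervals and floors (3 reads for a count of 0) cover counting error only. Calls were tested on simulated data that carried counting error only.

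The members and lists were chosen with earlier results of these data known, and the target list came from general knowledge of published work. The genes named were the members, PIP1;2, all called targets with the 4 most abundant others, and in each other list up to 4 called and the 2 most abundant others. ASN1, PRODH1, PRODH2, BCAT2, ETFQO, TPS5, TPS9, TPS10, TRE1, TPPE, TPPF, MIOX2, MIOX4, KIN10, KIN11, LSD1, PRR5, GBF4 and AT5G24810 were named after their values had been seen. Transcript lengths, overlaps and sequences came from RefSeq TAIR10.1, where 26604 loci and all 9 members matched. That differs from the build of the counts, so no coordinates are given. DESeq2 1.42.0 gave alternative size factors, and Python 3.11.15 with scipy 1.17.1 was used.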

Additional observations from a re-analysis of the deposited data

How the results depend on the processing

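Read minimums and fold thresholds leave a log2 ratio as it is, and the scalings, which shift all genes alike, turned the direction of 0 of the 8 tested members. The call of bZIP11 did not hold throughout. The number of members called lower was 1, and 0 with total counts as library sizes (bZIP11 at -0.97), with totals that leave out organelle loci and the top 20 genes (-0.97), with summed reads of 12 reference genes (-0.82) and in the edgeR exact test with an assumed coefficient of variation of 0.2. With a 1.5-fold threshold 2 members were called higher in place of 0. Called genes of the list of targets and markers numbered 7 with that threshold and 0 in the edgeR test, in place of 4. DIN10 was lost at 0.96 when the median ratio of the reference genes, an alternative chosen after seeing the data, set the scale. With a read minimum of 50 the called genes of that list were 3, since BGAL4 (49 reads in all) was no longer tested, and with summed reference genes 6. Over all tested genes 197 were higher and 166 lower. Total counts gave 252 and 118, totals without organelle and abundant genes 254 and 118, DESeq2 size factors 209 and 147, summed reference genes 472 and 68, their median ratio 158 and 231, the 1.5-fold threshold 496 and 599 and the edgeR test 15 and 3. Summed reference genes shifted the median of all genes by 0.22. Their sum was dominated by EF1A (7987 and 4645 reads) and UBQ10 (5306 and 6415). On that scale the S1 sum was 0.28 and the C sum 0.76. No paired analysis was possible because there was 1 library per genotype. For the same reason no library could be left out. Depth left bZIP44, with 9 reads in all, untested, and bZIP1 and ASN1 unresolved.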
